A study of Saccharomyces cerevisiae with 12 samples.

Results

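The branched-chain amino acid synthesis genes of budding yeast (Saccharomyces cerevisiae) were described from read counts of poly(A) RNA. There were 10 of them among the 7109 genes of the table: LEU1, LEU3, LEU4, LEU9, ILV2, ILV3, ILV5, ILV6, BAT1 and BAT2. They were chosen by name, and LEU2 was set apart because it is a marker that differed between the strains. The table itself named 3 of the 10 genes, and all 10 were found by locus tag. All 10 passed the filter on low counts. The 12 libraries fell into 4 groups of 3 biological replicates, which were a hel2 deletion strain with MMS, the wild type with MMS, the untreated hel2 deletion strain and the untreated wild type. Both strains are of the BY4741 background, a haploid laboratory yeast with auxotrophic markers, and both were grown in the rich medium YPD to an optical density of about 0.5. The alkylating agent methyl methanesulfonate (MMS), which methylates nucleic acids, was given for 90 min at 30 °C at a dose that the labels do not give. HEL2 encodes a ubiquitin ligase that marks collided ribosomes for ribosome-associated quality control. The labels do not say how the deletion was made, which marker replaced the gene, or whether the strain was 1 clone.

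Isoleucine, valine and leucine share most of their synthesis. Acetolactate synthase, with the catalytic subunit Ilv2 and the regulatory subunit Ilv6, starts the common route in mitochondria, and Ilv5 and Ilv3 carry it on to the keto acids. The leucine branch leaves from the keto acid of valine through the isopropylmalate synthases Leu4 and Leu9, the isomerase Leu1 and the dehydrogenase Leu2. The aminotransferases Bat1, in mitochondria, and Bat2, in the cytosol, make the final amino acids and also start their breakdown. Leu3 is a transcription factor that activates several of these genes when it binds the product of Leu4 and Leu9, and Gcn4, the effector of the general amino acid control, activates many of them too.

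Library totals ran from 36472686 to 53638964 counts, and 6463 genes were tested. HEL2 had 19 to 39 counts in the deletion libraries and 928 to 2431 in the wild type libraries. STE2, a gene of a-type cells, had 18644 to 31186 counts, and STE3, a gene of alpha-type cells, 89 to 511. The library of replicate 1 of the MMS-treated wild type, called WT MMS 1 here, stood apart. The SD over genes of its log2 deviation from the other libraries of its group was 0.493, against 0.256 to 0.374 in the remaining libraries. Levels are CPM, counts scaled to a common library size by TMM, which assumes that most genes do not change. Yet 61.9% of all genes had an adjusted p under 0.05 between the strains with MMS. For MMS the share was 69.9% in the wild type and 75.4% in the deletion strain. The calls there thus go against this assumption, and they themselves rest on TMM. With plain library sizes the median of all genes moved to 0.11 on the log2 scale for the deletion without MMS and to 0.37 for the deletion with MMS. For MMS it moved to 0.61 in the deletion strain and to 0.33 in the wild type, and for the interaction of strain and MMS to 0.23.

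Together the 10 genes made up 1.08, 1.13 and 1.06% of a library in the deletion strain with MMS and 0.799, 0.777 and 0.771% in the wild type with MMS. In the untreated deletion strain they took 0.716, 0.749 and 0.763%, and in the untreated wild type 0.734, 0.709 and 0.697%. The deletion libraries with MMS thus lay above the other 9 in this share of plain library totals. Without LEU4 and ILV6 the share was 0.446 to 0.47% in these libraries and 0.322 to 0.353% in the wild type with MMS. It was then 0.531 to 0.547% in the untreated deletion strain and 0.517 to 0.535% in the untreated wild type. Without these genes the treated deletion libraries thus lay below all untreated ones. LEU4 and ILV6 rose with MMS in both strains, so leaving them out in itself lowers the treated shares.

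**Figure D1:**
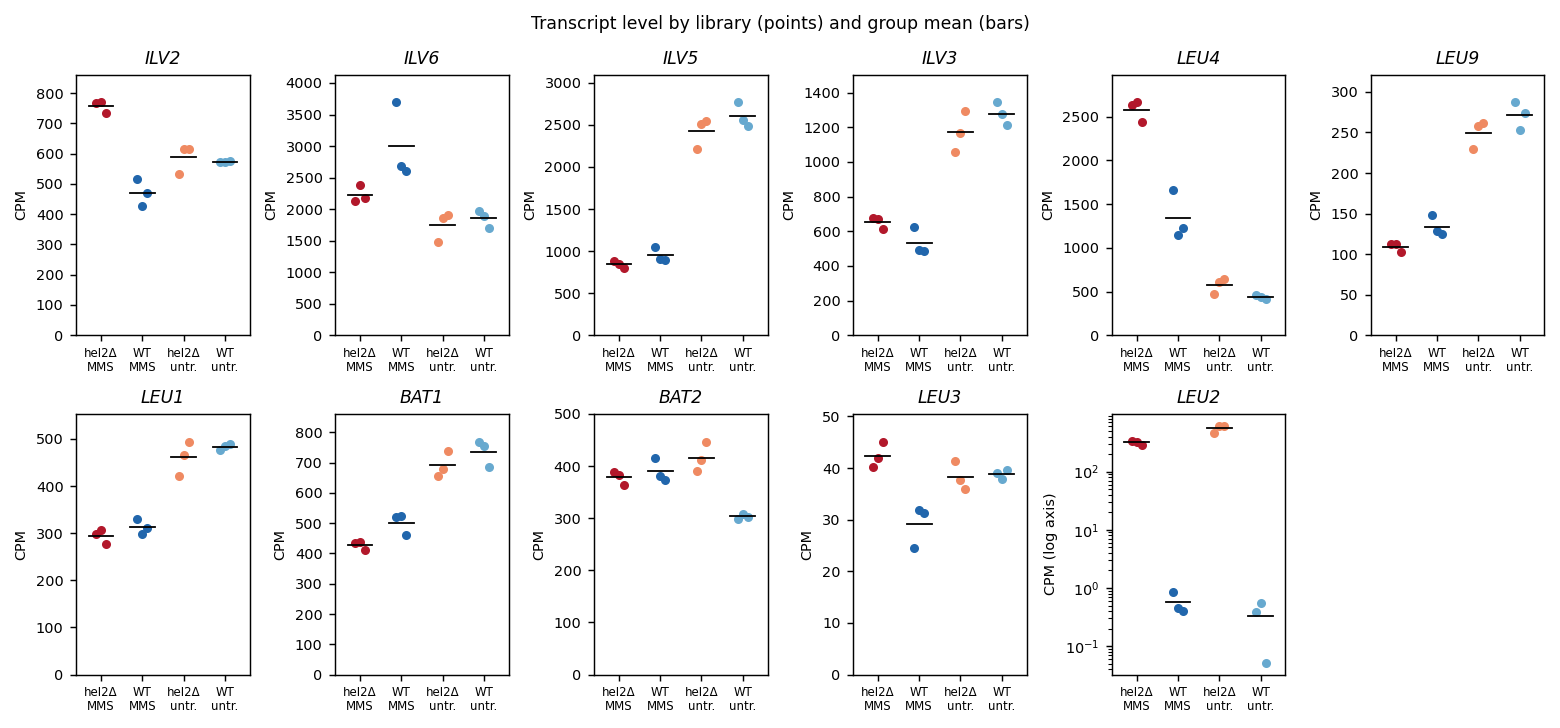
Transcript level (CPM, linear axes from 0, except LEU2 on a log axis) of the 10 genes and of LEU2 in each of 12 libraries, with points for libraries and bars for group means. LEU4 was at 2438 to 2661 CPM in the MMS-treated deletion strain and at 418 to 465 CPM in the untreated wild type, while LEU2 was under 1 CPM in every wild type library.

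To ask whether the pathway differed along with the LEU2 marker, the untreated deletion strain was compared with the untreated wild type. LEU2 (YCL018W), the dehydrogenase gene of the leucine branch, had 461, 605 and 615 CPM in the untreated deletion strain, against 0.394, 0.556 and 0.0521 CPM in the untreated wild type. Of the 10 pathway genes only BAT2 passed the test, and it was higher in the deletion strain. Over all genes tested 8.57% passed in this comparison, 5.25% higher and 3.33% lower. The median log2 fold change of the 10 genes was -0.08, against 0.01 for all genes.

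BAT2 (YJR148W), the cytosolic aminotransferase gene, had 390.4, 411 and 447 CPM in the untreated deletion strain, against 299, 309 and 302 CPM in the untreated wild type. The groups did not overlap. The log2 fold change was 0.46 ± 0.07 (SE, n = 3 per group), a 1.37-fold difference, with an adjusted p of 0.00235 in edgeR's quasi-likelihood test. LEU4 (YNL104C), the gene of the main isopropylmalate synthase, had 468, 604 and 640.1 CPM in the untreated deletion strain, against 465, 438 and 418 CPM in the untreated wild type. The lowest deletion library lay just above the highest wild type library. The log2 fold change of 0.37 ± 0.14 did not pass (adjusted p = 0.136). It passed with plain library sizes (0.47, adjusted p = 0.00334), with only these 6 libraries in the fit (0.38, adjusted p = 0.0443) and without WT MMS 1 (0.36, adjusted p = 0.0243).

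The other 8 genes had log2 fold changes from -0.12 to 0.04, and their groups overlapped. Their 95% intervals, not adjusted for the number of genes, reached down to -0.39, for ILV6, and up to 0.23, for ILV2. LEU1 (YGL009C), the isomerase gene that acts just before LEU2, had a log2 fold change of -0.07 ± 0.08 with an interval from -0.24 to 0.10 (adjusted p = 0.656). LEU3 (YLR451W), the gene of the pathway's own transcription factor, had -0.02 ± 0.10 with an interval from -0.23 to 0.19 (adjusted p = 0.94). Groups without overlap were seen for 2 of the 10 genes, against 31.9% of all genes tested. The deletion of HEL2 and the difference at LEU2 stand in the same libraries and cannot be told apart in any comparison of the strains.

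**Figure D2:**
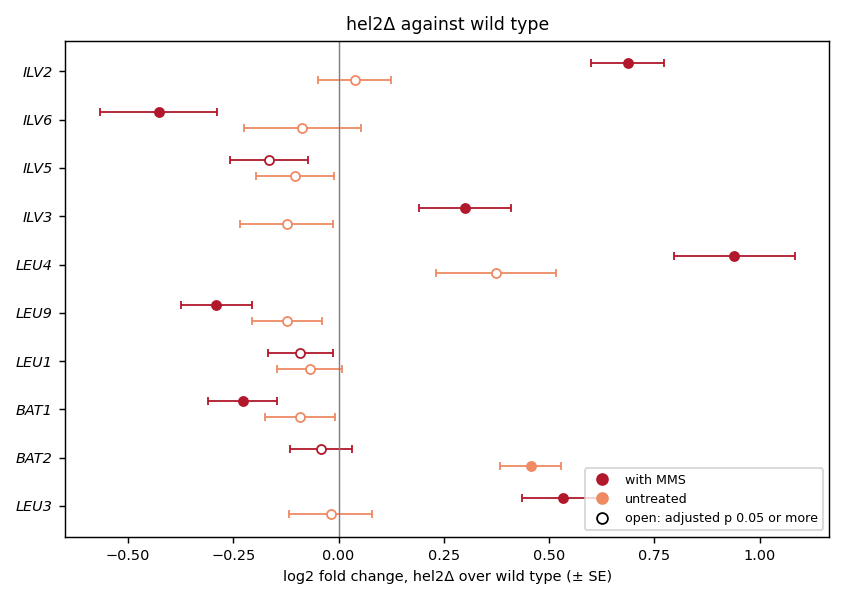
Log2 fold change of the hel2 deletion strain over the wild type for the 10 genes (x axis, ± SE, n = 3 libraries per group), with MMS and untreated, where open points did not pass an adjusted p of 0.05. Untreated, only BAT2 at 0.46 passed, and with MMS LEU4 at 0.94 lay farthest to the right.

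MMS changed the genes of the pathway in opposite directions. LEU4 and ILV6 rose in both strains, while ILV5, ILV3, LEU9, LEU1 and BAT1 fell in both. In the deletion strain 3 genes were higher with MMS (LEU4, ILV2 and ILV6) and 5 were lower, in a comparison where 75.4% of all genes passed, 39.2% higher and 36.2% lower. In the wild type 3 genes were higher with MMS (LEU4, ILV6 and BAT2) and 7 were lower, where 69.9% of all genes passed, 35.6% higher and 34.2% lower. Treated and untreated libraries did not overlap for 9 of the 10 genes in the deletion strain and for 10 of 10 in the wild type, against 81.4% and 71.4% of all genes. The medians of the 10 genes were -0.39 in the deletion strain and -0.48 in the wild type, against 0.06 and 0.02 over all genes in these strains. The 2 medians became 0.17 and -0.16 with plain library sizes.

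The common route opened with subunits whose genes both rose with MMS in the deletion strain and went apart in the wild type. ILV6 (YCL009C), for the regulatory subunit of acetolactate synthase, had 2128, 2377 and 2178 CPM in the deletion strain with MMS and 3691, 2689.5 and 2607 CPM in the wild type with MMS. Untreated, it had 1477, 1858 and 1900.45 CPM in the deletion strain and 1965, 1896 and 1698 CPM in the wild type. Treated and untreated libraries did not overlap in either strain, and WT MMS 1 was the highest of all 12. The log2 fold change with MMS was 0.35 ± 0.14 in the deletion strain (adjusted p = 0.0351) and 0.69 ± 0.14 in the wild type (adjusted p = 0.00063). The call in the deletion strain was lost with median-ratio scaling (0.30, adjusted p = 0.0898), with DESeq2 (0.30, adjusted p = 0.0637), with a replicate block (0.35, adjusted p = 0.057) and without replicate 2 or 3 of the treated or replicate 1 of the untreated deletion strain (adjusted p = 0.111, 0.0599 and 0.141).

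ILV2 (YMR108W), for the catalytic subunit, had 768, 769 and 736 CPM in the deletion strain with MMS and 517, 426 and 469 CPM in the wild type with MMS. Untreated, it had 533, 617 and 615 CPM in the deletion strain and 573, 572 and 574 CPM in the wild type. Treated libraries lay above the untreated ones in the deletion strain and below them in the wild type. The log2 fold change with MMS was 0.37 ± 0.09 in the deletion strain (adjusted p = 0.00179) and -0.28 ± 0.09 in the wild type (adjusted p = 0.0105), and the second became 0.021 with plain library sizes (adjusted p = 0.755).

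ILV5 (YLR355C), for the reductoisomerase of the common route, had 886, 847 and 804 CPM in the deletion strain with MMS and 1044, 907 and 894 CPM in the wild type with MMS. Untreated, it had 2218, 2517 and 2542 CPM in the deletion strain and 2767, 2564 and 2489.7 CPM in the wild type. It showed the largest fall of the 10 genes in both strains, by 1.52 ± 0.09 on the log2 scale in the deletion strain (adjusted p = 7.33e-09) and fell by 1.46 ± 0.09 in the wild type (adjusted p = 1.71e-08). ILV3 (YJR016C), for the dehydratase that follows, had 679, 672 and 616 CPM in the deletion strain with MMS and 622, 491 and 483 CPM in the wild type with MMS. Untreated, it had 1059, 1167 and 1293 CPM in the deletion strain and 1343, 1279 and 1211 CPM in the wild type. All treated libraries lay below all untreated ones. ILV3 fell by 0.84 ± 0.11 in the deletion strain (adjusted p = 1.26e-05) and fell by 1.26 ± 0.11 in the wild type (adjusted p = 3.36e-07).

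In the leucine branch the paralogs of the first enzyme parted. LEU4 had 2637, 2661 and 2438 CPM in the deletion strain with MMS and 1659, 1151 and 1222 CPM in the wild type with MMS, all above the untreated libraries given above. It rose 4.52-fold in the deletion strain, by 2.18 ± 0.15 on the log2 scale (adjusted p = 1.77e-08), and 3.05-fold in the wild type, by 1.61 ± 0.15 (adjusted p = 4.34e-07). LEU9 (YOR108W), for the minor isozyme, had 103 to 113 CPM in the deletion strain with MMS, 124 to 148 CPM in the wild type with MMS, 229.7 to 261 CPM in the untreated deletion strain and 254 to 287 CPM in the untreated wild type. It fell by 1.19 ± 0.08 in the deletion strain (adjusted p = 2.76e-08) and fell by 1.02 ± 0.08 in the wild type (adjusted p = 1.78e-07). LEU1 had 276 to 307 CPM in the deletion strain with MMS and 422 to 494 CPM in that strain untreated, and 299 to 331 CPM in the wild type with MMS and 476 to 489 CPM untreated. LEU1 fell by 0.65 ± 0.08 in the deletion strain (adjusted p = 5.35e-06) and fell by 0.63 ± 0.08 in the wild type (adjusted p = 9.64e-06). With plain library sizes the change of LEU1 in the deletion strain was -0.09 and did not pass (adjusted p = 0.246).

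LEU2 itself could be followed in the deletion strain, where it had 341, 325 and 286 CPM with MMS, against the 461, 605 and 615 CPM without. The log2 fold change was -0.82 ± 0.24 (adjusted p = 0.00853), or -0.25 with plain library sizes (adjusted p = 0.29) and -0.87 with DESeq2 (adjusted p = 0.0941). In the wild type with MMS it had 0.862, 0.445 and 0.398 CPM, from 28, 20 and 21 counts.

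The aminotransferase genes also went apart in the wild type. BAT1 (YHR208W), for the mitochondrial enzyme, had 413 to 437 CPM in the deletion strain with MMS and 656 to 739.7 CPM in that strain untreated, and 459.5 to 523 CPM in the wild type with MMS and 686 to 769 CPM untreated. It fell by 0.69 ± 0.08 in the deletion strain (adjusted p = 4.82e-06) and fell by 0.56 ± 0.08 in the wild type (adjusted p = 4.68e-05). With plain library sizes the change in the deletion strain was -0.13 and did not pass (adjusted p = 0.125). BAT2 had 389, 383 and 364 CPM in the deletion strain with MMS and 415, 382 and 373 CPM in the wild type with MMS, close to the untreated deletion strain and above the untreated wild type. Its log2 fold change was -0.14 ± 0.07 in the deletion strain (adjusted p = 0.109), and alternatives gave calls in opposite directions, at 0.42 with plain library sizes (adjusted p = 3.82e-05) and at -0.19 with DESeq2 (adjusted p = 0.0219). In the wild type it rose by 0.36 ± 0.07 (adjusted p = 0.000646).

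LEU3 had 40.2, 41.9 and 45.1 CPM in the deletion strain with MMS and 24.6, 31.8 and 31.4 CPM in the wild type with MMS. Untreated, it had 41.3, 37.7 and 35.9 CPM in the deletion strain and 39.1, 37.8 and 39.6 CPM in the wild type. The treated wild type libraries were the lowest of all, with WT MMS 1 at the bottom, and the deletion libraries overlapped. The log2 fold change with MMS was 0.15 ± 0.10 in the deletion strain (adjusted p = 0.191), or 0.70 with plain library sizes (adjusted p = 0.00204). In the wild type it was -0.41 ± 0.10 (adjusted p = 0.0025), or -0.08 with plain library sizes (adjusted p = 0.692).

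**Figure D3:**
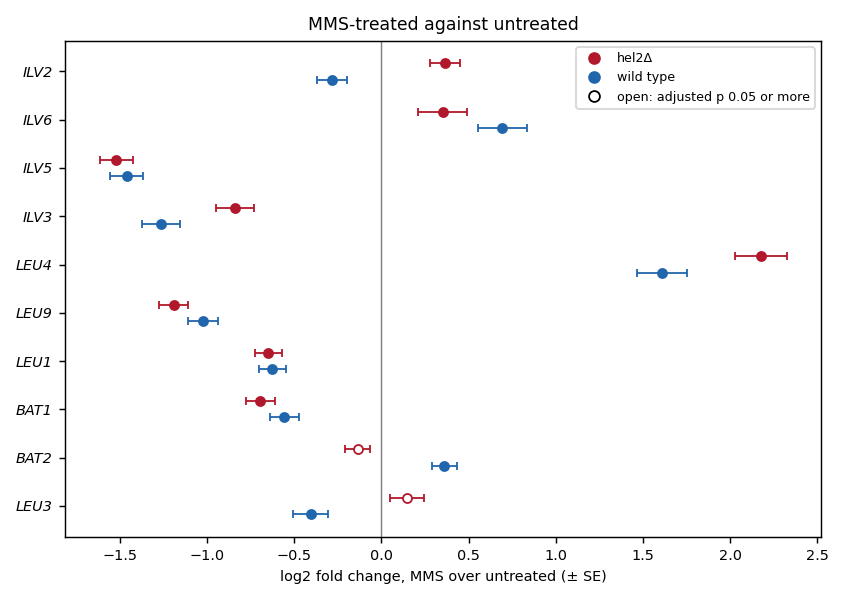
Log2 fold change of MMS-treated over untreated libraries for the 10 genes (x axis, ± SE, n = 3 libraries per group), in the hel2 deletion strain and in the wild type, where open points did not pass an adjusted p of 0.05. LEU4 stood at 2.18 and 1.61 in the deletion strain and the wild type, and ILV5 at -1.52 and -1.46.

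Under MMS the strains differed in 7 of the 10 genes, a share near that of all genes. LEU4, ILV2, LEU3 and ILV3 were higher in the deletion strain, and ILV6, LEU9 and BAT1 were lower, while LEU1, ILV5 and BAT2 did not pass. These 7 of 10 stand beside 61.9% of all genes that passed in this comparison, 32% higher and 29.8% lower. The median of the 10 genes was -0.07, against 0.03 for all genes. LEU4 was higher by 0.94 ± 0.14 (adjusted p = 9.47e-05), a 1.92-fold difference, ILV2 by 0.69 ± 0.09 (adjusted p = 1.95e-05) and LEU3 by 0.53 ± 0.10 (adjusted p = 0.000425). In each of these 3 genes every deletion library lay above every wild type library. Groups without overlap were seen for 7 of the 10 genes, against 68.3% of all genes.

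The remaining calls were smaller. ILV3 was higher by 0.30 ± 0.11 (adjusted p = 0.03) with an overlap at WT MMS 1, and its call was lost with median-ratio scaling (adjusted p = 0.102), with DESeq2 (adjusted p = 0.0749), with only these 6 libraries (adjusted p = 0.07) and without replicate 1 or 2 of the treated deletion strain or replicate 2 or 3 of the treated wild type (adjusted p = 0.0843, 0.0814, 0.096 and 0.11). The differences of the lower genes were -0.43 ± 0.14 for ILV6 (adjusted p = 0.0174), -0.29 ± 0.08 for LEU9 (adjusted p = 0.0091) and -0.23 ± 0.08 for BAT1 (adjusted p = 0.0284), and with plain library sizes they were -0.06, 0.063 and 0.12, none of which passed. The call of ILV6 was lost without WT MMS 1 (-0.25, adjusted p = 0.0585) and without replicate 1 or 3 of the treated deletion strain (adjusted p = 0.0593 and 0.0523). That of BAT1 was lost without any one of the 3 treated deletion libraries or without WT MMS 1 or replicate 2 of the treated wild type (adjusted p from 0.0528 to 0.0967), with a filter at a mean log2 CPM of 4 (adjusted p = 0.0592) and in a fit of these 6 libraries alone (adjusted p = 0.0558). LEU1 at -0.09, ILV5 at -0.17 and BAT2 at -0.04 became 0.26, 0.19 and 0.31 with plain library sizes, and these 3 passed there. ILV5 also passed with DESeq2, but as lower in the deletion strain (-0.23, adjusted p = 0.0347).

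Whether the strains differed in their MMS effect was tested as an interaction. Of the 10 genes 4 had a higher MMS effect in the deletion strain and 1 a lower one, where 40% of all genes passed, 18.6% higher and 21.5% lower. The differences were 0.65 ± 0.12 for ILV2 (adjusted p = 0.00122), 0.55 ± 0.14 for LEU3 (adjusted p = 0.00722), 0.57 ± 0.20 for LEU4 (adjusted p = 0.0394) and 0.42 ± 0.16 for ILV3 (adjusted p = 0.045). BAT2 had -0.50 ± 0.10 (adjusted p = 0.00232). Only ILV2, LEU3 and BAT2 kept this call when any single library was left out. The call of LEU4 was lost without any one library other than WT MMS 1 or replicate 3 of the untreated deletion strain, and that of ILV3 without the same 10 libraries in turn. The medians of the 10 genes and of all genes were -0.04 and -0.01.

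Ratios within a library do not depend on how libraries are scaled. The log2 ratio of BAT2 to BAT1 counts was -0.18 ± 0.02 in the deletion strain with MMS and -0.36 ± 0.08 in the wild type with MMS (SD, n = 3 each). It was -0.73 ± 0.01 in the untreated deletion strain and -1.28 ± 0.09 in the untreated wild type. No group overlapped another, and the cytosolic gene took 46.7 to 47.3% of the counts of the pair in the deletion strain with MMS, against 28 to 30.6% in the untreated wild type. The ratio was higher in the deletion strain by 0.37 on average within treatments and higher with MMS by 0.74 on average within strains. Both gave an exact two-sided p of 0.005, the smallest that the permutations within strata allow.

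The log2 ratio of LEU9 to LEU4 counts was -4.56 ± 0.01 in the deletion strain with MMS and -3.31 ± 0.17 in the wild type with MMS (SD, n = 3 each). It was -1.18 ± 0.14 in the untreated deletion strain and -0.70 ± 0.09 in the untreated wild type. LEU9 took 4.04 to 4.11% of the pair's counts in the deletion strain with MMS, 8.18 to 10.1% in the wild type with MMS, 29 to 32.9% in the untreated deletion strain and 36.7 to 39.6% in the untreated wild type. The groups again did not overlap, in an order that ran opposite to the level of LEU4. The mean difference was -0.86 for the deletion strain within treatments and -3.00 for MMS within strains (exact two-sided p = 0.005 for both, the smallest possible). Single comparisons of 3 against 3 libraries cannot go below an exact p of 0.1, which each of them gave. Both pairs are paralogs, and reads shared between their copies would draw the ratios together.

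**Figure D4:**
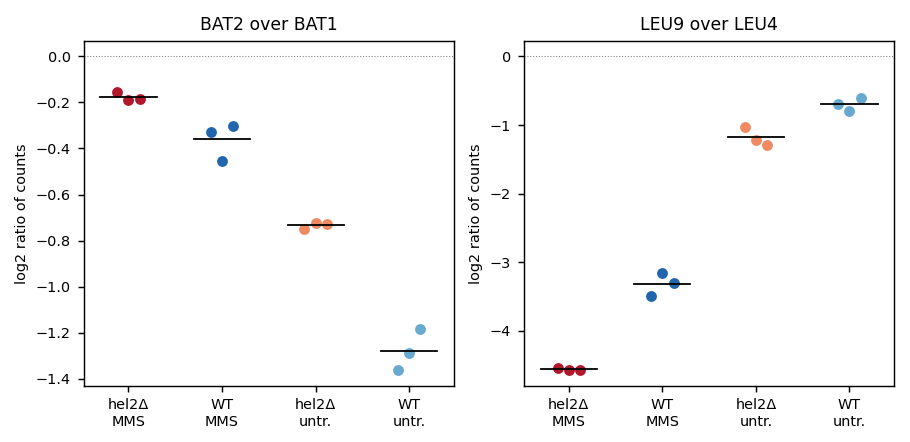
Log2 ratio of counts within each of 12 libraries (points, with bars for group means of n = 3) for BAT2 over BAT1 and for LEU9 over LEU4. The BAT2 ratio was -0.18 in the MMS-treated deletion strain and -1.28 in the untreated wild type, and the LEU9 ratio was -4.56 and -0.70 in these groups.

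Other genes tied to the pathway were read beside it. Of 4 further genes known to respond to Leu3, none passed between the untreated strains, although BAP2, at 0.32, did so with plain library sizes (0.42, adjusted p = 0.0197) and without WT MMS 1 (0.31, adjusted p = 0.0364). With MMS, GDH1 (YOR375C), a glutamate dehydrogenase gene, was lower in the deletion strain, at -0.56 ± 0.08 on the log2 scale (adjusted p = 7.08e-05). OAC1, for a mitochondrial carrier that exports isopropylmalate, MAE1, for the malic enzyme, and BAP2, for a branched-chain amino acid permease, did not pass, at 0.04, 0.21 and 0.12. BAP2 passed without WT MMS 1 (0.33, adjusted p = 0.0159), and with plain library sizes OAC1, MAE1 and BAP2 passed at 0.37, 0.56 and 0.49. MAE1 also passed with a filter at a mean log2 CPM of 4 (0.25, adjusted p = 0.0462) and without replicate 1 of the untreated deletion strain (0.21, adjusted p = 0.0466).

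Of 10 genes of branched-chain amino acid uptake and its sensor, BAP2 among them, none passed between the untreated strains, although BAP2 and STP1 did so as higher without WT MMS 1. With MMS 5 were higher in the deletion strain and 1 was lower, beside 32% and 29.8% of all genes. The count of higher genes was 8 with plain library sizes, where the median of all genes was 0.37 and the share of all genes that passed was not counted. STP2 (YHR006W), for a transcription factor that acts below the amino acid sensor Ssy1, had 79.2, 80.9 and 82.8 CPM in the deletion strain with MMS, against 17.8, 23.3 and 23.6 CPM in the wild type with MMS. These groups lay far apart, by 1.91 ± 0.13 on the log2 scale (adjusted p = 1.2e-07). AGP1 (YCL025C), for a broad permease, was higher by 1.62 ± 0.16 (adjusted p = 2.23e-06), and TAT1, for a permease of valine, leucine and isoleucine among others, was lower, at -0.79 ± 0.12 (adjusted p = 9.2e-05). Of the genes listed upstream, GCN2 passed with MMS as higher in the deletion strain, at 0.37. The transcript of GCN4 had a log2 difference of -0.20 ± 0.09 with MMS (adjusted p = 0.0566), and 0.04 ± 0.09 without (adjusted p = 0.851). The first passed with DESeq2 (-0.26, adjusted p = 0.00483), with median-ratio scaling (-0.26, adjusted p = 0.0258), with limma-voom (-0.20, adjusted p = 0.0468), without replicate 3 of the treated wild type (-0.27, adjusted p = 0.0202) and without replicate 2 of the untreated deletion strain (-0.20, adjusted p = 0.0492).

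Synthesis genes of arginine, lysine and histidine, which Gcn4 also activates, served as the nearest groups for comparison. With MMS all 9 arginine genes were higher in the deletion strain, with a median of 1.85, beside the 4 of 10 branched-chain genes and their median of -0.07. Of 8 lysine genes 7 were higher and 1 lower (median 0.89), and of 6 histidine genes 5 were higher (median 1.02), where 32% of all genes were higher and 29.8% lower. The lower lysine call was lost with plain library sizes, without WT MMS 1 and without replicate 3 of the treated deletion strain. The MMS effect was higher in the deletion strain in 9 of 9 arginine, 7 of 8 lysine and 6 of 6 histidine genes, and in 4 of 10 branched-chain genes, beside 18.6% of all genes. Untreated, 5 arginine genes were higher and 1, ARG8, was lower, and LYS1 and HIS4 alone of the lysine and histidine lists passed, as higher, where 5.25% of all genes were higher and 3.33% lower. These untreated calls were partly unstable. The call of ARG8 was lost with plain library sizes (adjusted p = 0.13), with the replicate block (adjusted p = 0.0778) and without any one of 8 libraries (adjusted p from 0.0509 to 0.129). The call of ARG7 was lost with median-ratio scaling, with the block and without any one of 4 libraries (adjusted p from 0.0535 to 0.0977), and arginine genes higher in the deletion strain numbered 4 to 7 over the alternatives. The call of LYS1 was lost with median-ratio scaling (adjusted p = 0.0537), with the block (adjusted p = 0.0553) and without any one of 4 libraries (adjusted p from 0.0744 to 0.104). That of HIS4 was lost without replicate 3 of the untreated deletion strain or of the untreated wild type (adjusted p = 0.0506 and 0.0537). Other untreated calls appeared under alternatives. LYS4, at -0.32 (adjusted p = 0.052), passed as lower with DESeq2 (adjusted p = 0.0224) and plain library sizes, among others. HIS6, at -0.21 (adjusted p = 0.0608), passed as lower with DESeq2 (adjusted p = 0.00832) and median-ratio scaling, among others. HIS5, HIS2 and LYS2 passed as higher under some alternatives. With plain library sizes the medians of the strain difference under MMS were 0.28 for the branched-chain genes, 2.21 for arginine, 1.23 for lysine and 1.35 for histidine. Whether the lists differed from each other was not tested.

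**Figure D5:**
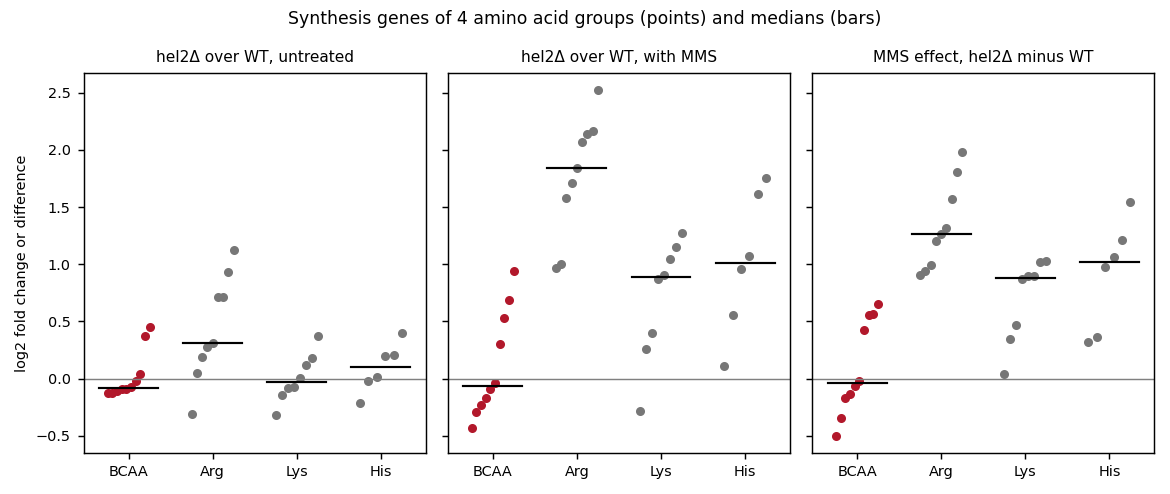
Log2 fold changes of the hel2 deletion strain over the wild type, without and under MMS, and the interaction (y axis), for genes of branched-chain (BCAA), arginine (Arg), lysine (Lys) and histidine (His) synthesis, with points for genes and bars for medians. With MMS the median was -0.07 for the branched-chain genes and 1.85 for the arginine genes.

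The genes whose log2 CPM ran most like each member across the 12 libraries are given as a description, since libraries of a group share strain and treatment. ILV5 ran most like the ergosterol synthesis genes ERG5 (r = 0.999) and ERG11 (r = 0.997), and LEU9 most like ERG3 and HMG1 of the same pathway (r = 0.996 for both). LEU4 ran most like ADH5, an alcohol dehydrogenase gene (r = 0.999), and ATG41, an autophagy gene (r = 0.995). LEU1 had ILV5 among its 2 nearest genes (r = 0.989). No gene ran as closely with BAT2, whose nearest was TDA1 at r = 0.873.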

How the data were processed

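The authors deposited 1 table of raw read counts per gene for 12 libraries of poly(A) RNA, with no normalization. RNA was extracted with hot phenol and selected with oligo-dT beads, per the labels' protocols. STAR 2.5.1a, featureCounts 1.4.6-p5 of Subread and Salmon are named, per the submitters' processing notes. No source used here states the genome build, strandedness or the handling of multimapping reads, so reads of paralogs or antisense genes may be misplaced (LEU4 with LEU9, BAT1 with BAT2, LEU4 with its overlapping reading frame YNL103W-A, at most 348 counts). The 7230 lines held 7109 identifiers, and 97 repeated ones were used once. Symbols came from RefSeq assembly R64, which matched 6042 identifiers.

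Counts were tested with edgeR 4.0.16 in R 4.3.3 (TMM, filterByExpr, robust quasi-likelihood), with all 12 libraries in 1 fit and no block. P-values were adjusted by Benjamini-Hochberg over 6463 genes, with a threshold of 0.05. SE is the size of the change over the square root of F. Ratios used counts plus 0.5. Replicates differed by at least 63.6 in chi-square per degree of freedom, far beyond counting noise. P-values measure the spread between these libraries. Alternatives included DESeq2 1.42.0 and limma-voom 3.58.1. The fit was checked on simulated data with far fewer changed genes than were called here with MMS. That check did not cover scaling under so wide a change. All members, the lists, LEU2 and HEL2 are named by rule. Of the other listed genes only a part is named, with some that did not pass in a strain comparison, such as OAC1 and ILV1. HIS3 was left out of the histidine list as a marker. The members and lists were chosen with earlier results of these data known.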

Additional observations from a re-analysis of the deposited data

Results flagged for a closer look

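The MMS effect differed between the strains, by the interaction test, for 5 of the 10 genes, beside 40% of all genes. On the log2 scale, deletion strain minus wild type, the difference was 0.65 for ILV2, 0.55 for LEU3, 0.57 for LEU4, 0.42 for ILV3 and -0.50 for BAT2. ILV2 moved with opposite signs in the strains, at 0.37 in the deletion strain and -0.28 in the wild type. The calls of LEU4 and ILV3 were lost under most of the alternatives tried. BAT2 stood at 416 ± 28.4 CPM in the untreated deletion strain and 303 ± 4.93 CPM in the untreated wild type (SD, n = 3 each), and at 379 ± 13.5 and 389.8 ± 22 CPM with MMS in the same strains.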

How the results depend on the processing

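Of 50 values of a member in a comparison, 33 kept their side of the threshold under every alternative run. Some of these that never passed changed sign, as the interaction of BAT1 did (log2 values from -0.20 to 0.11 over the alternatives). With plain library sizes 2 members were higher in the untreated deletion strain, and with MMS 7 were higher and 0 lower in the deletion strain. MMS in the deletion strain then raised 5 and lowered 3. The median log2 fold changes of all genes were then 0.11, 0.37 and 0.61 in these comparisons. The share of all genes that passed was not counted under any alternative. Among values that passed with TMM or with plain library sizes, signs turned under the latter at several members. For the strains with MMS these were LEU1 (0.26), LEU9 (0.063), ILV5 (0.19), BAT1 (0.12) and BAT2 (0.31). Signs also turned for MMS in the wild type at ILV2 (0.021) and for MMS in the deletion strain at BAT2 (0.42). The alternative itself removes the correction for composition. With median-ratio scaling 2 members had a higher MMS effect in the deletion strain, and with the replicate block also 2; the cause was not tested. With only the libraries compared, 2 members were higher in the untreated deletion strain. Leaving out each library in turn gave 2 to 4 members with a higher MMS effect in the deletion strain, 1 to 2 higher in the untreated deletion strain and 1 to 3 lower in the deletion strain with MMS. The 4 results on the ratios of paralogs kept sign and call with a pseudocount of 5 and without any one library. The labels do not say that a replicate number marks a shared batch, so the numbers were not taken as a pairing. Same-numbered libraries deviated together with correlations from -0.10 to 0.24, only 1 of them over 0.1, which does not exclude a shared batch. The replicate block ended 3 calls of members, LEU4 and ILV3 in the interaction and ILV6 for MMS in the deletion strain.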

Other observations

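Genes that feed the pathway or break down its products were also read. ILV1, for the threonine deaminase that opens isoleucine synthesis, had a log2 difference between the strains of 0.03 ± 0.10 with MMS (adjusted p = 0.803), or 0.39 with plain library sizes (adjusted p = 8.43e-05). CHA1, for a catabolic serine and threonine deaminase, had 87.2 ± 5.56 CPM in the deletion strain with MMS, 67.1 ± 8.38 CPM in the wild type with MMS, 447 ± 12.3 CPM in the untreated deletion strain and 474 ± 19.4 CPM in the untreated wild type (SD, n = 3 each). Its log2 fold change with MMS was -2.36 ± 0.09 in the deletion strain (adjusted p = 7.55e-11) and -2.82 ± 0.09 in the wild type (adjusted p = 5.37e-11). Between the strains with MMS, CHA1 was higher in the deletion strain, at 0.38, and PAN6, listed with the precursors and branches, was lower, at -0.65.

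ARO10, for a decarboxylase of the Ehrlich pathway that degrades amino acids to fusel alcohols, had 269 ± 3.33 CPM in the deletion strain with MMS, against 119 ± 17.1 CPM in the wild type with MMS (SD, n = 3 each). The log2 difference was 1.18 ± 0.12 (adjusted p = 2.48e-06). Untreated, it was 0.42 ± 0.12 (adjusted p = 0.0417), a call lost without any one of 9 libraries. The pyruvate decarboxylase gene PDC1 and the alcohol dehydrogenase gene ADH1 were lower in the deletion strain with MMS, at -1.82 ± 0.12 (adjusted p = 1.06e-07) and -1.94 ± 0.15 (adjusted p = 3.02e-07) on the log2 scale. PDC5 was also lower there, with means of 41.6 CPM in the deletion strain and 71.8 CPM in the wild type.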
